A study of Drosophila melanogaster with 4 samples.

Results

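The H3K4me1 peaks on the euchromatin of the X chromosome in S2-DRSC cells numbered 944, or 8.45% of the 11173 peaks in the deposited list. They were chosen by position alone, as all X peaks with a midpoint below 20900000 on FlyBase release 5. Another 85 X peaks lay beyond that limit, toward the centromere. S2-DRSC is an established Drosophila melanogaster cell line, labelled male and derived from embryos of a late stage. The 2 ChIP libraries were made with an affinity-purified polyclonal rabbit antibody against H3K4me1, and the other 2 libraries were input DNA. All 4 came from this same line, with no treatment or genotype contrast in the labels.

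H3K4me1 is histone H3 carrying a single methyl group on lysine 4. In flies much of it is placed by the COMPASS-like methyltransferase Trr, and it typically marks enhancers and the sequence beside active promoters. The male X is transcribed at a raised rate through the dosage compensation complex, which acetylates histone H4 over active X genes. A male line carries fewer copies of X than of each autosome, so fewer X reads and less mark per X copy cannot be told apart in a peak list.

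The same measures were taken on 2L, 3L and 3R without the 1.5 Mb nearest the centromere, which left 1203, 1610 and 1989 peaks. There was 1 list for all libraries, so no value has a replicate and no difference between arms was tested. Nothing below is shown to be particular to X. Intervals printed in brackets are exact 95% binomial intervals that treat peaks or blocks as independent, although neighbours are not. Read depth was not analysed here.

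X carried fewer peaks per length than the 3 autosomal arms, and slightly wider ones. Its peaks ran over 20.7 Mb at 45.7 per Mb, while the density was 55.9 per Mb on 2L, 70.2 on 3L and 75.4 on 3R. Peaks covered 5.38% of X, 5.91% of 2L, 7.72% of 3L and 8.28% of 3R. The mean coverage of a 100-kb block of X was 5.39% ± 8.73 (SD, n = 207 blocks), so the spread between blocks was larger than the mean. This held on the other arms too, with 5.91% ± 7.03 on 2L, 7.70% ± 9.33 on 3L and 8.29% ± 8.44 on 3R. The median X block was covered to 1.56%, against 3.94% on 2L, 4.84% on 3L and 6.20% on 3R.

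The limit at 20900000 fell inside a peak-free stretch of 217589 bases from 20715330 to 20932918. The last peak inside, from 20714752 to 20715329, had 578 bases and scored 86.6. The first peak outside, from 20932919 to 20933380, had 462 bases and scored 91.4. The 2 peaks on either side of the limit were thus alike in width and score. The 85 peaks beyond it covered 7.29% of their 1.49 Mb and had a median score of 28.2, while the X euchromatin had a median score of 18.7.

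The X peaks were 642 bases wide at the median, with quartiles of 336 and 1402 bases. The median was 548 bases on 2L, 577 on 3L and 608 on 3R. The narrowest X peaks had 200 bases, a width shared by 22 peaks, and the widest had 13168. Peaks of 4000 bases or more numbered 58, or 6.14% of the X peaks, and held 28.8% of the X peak bases. Such broad peaks made up 5.40% of the peaks on 2L, 4.97% on 3L and 4.17% on 3R. Per length of arm, however, they were sparser on X, with 2.81 per Mb against 3.02, 3.49 and 3.15 on 2L, 3L and 3R. Peaks of 300 to under 500 bases made up 21.1% of the X peaks, and 24.2%, 24.8% and 21.7% of those on 2L, 3L and 3R.

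The widest X peak lay at 17180711 to 17193878 and scored 88.5. The next was the peak from 19782972 to 19791993, which had 9022 bases and scored 80.2. That second peak stood in a group of 12 peaks, from 19736522 to 19791993, which covered 39.2% of that stretch. The third and the fourth were neighbours near 10.4 Mb, at 10358144 to 10366302 and at 10383274 to 10391416. They had 8159 and 8143 bases and scores of 54.5 and 154. The fifth, from 3574238 to 3582058, had 7821 bases and a score of 82.4. None of these 5 was among the 30 highest-scoring peaks of X, the best of them standing at place 37.

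The authors gave each peak a score on a scale that neither the header nor the labels explain, so scores were read as ranks. A percentile here is a peak's place among the 5746 euchromatic peaks of X, 2L, 3L and 3R. The median X peak stood at percentile 52.7, and the medians of 2L, 3L and 3R were 45.7, 50.2 and 51.3. The difference lay at the top of the range. The highest-scoring 25% of the 4 arms took 287 of 944 X peaks, or 30.4% (27.5 to 33.4), and 21.0% of the peaks on 2L, 24.0% on 3L and 25.6% on 3R. The highest-scoring 10% took 142 X peaks, or 15.0% (12.8 to 17.5), against 9.64%, 9.01% and 8.65%. At the very top X did not stand out, with 10 peaks, or 1.06% (0.509 to 1.94), in the highest 1%, against 1.33% on 2L, 0.683% on 3L and 1.01% on 3R. The lowest-scoring 25% held 25.5% of the X peaks and from 23.8% to 27.7% of those on the other arms.

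Counted per Mb, the ratio of X to the autosomal arms varied with the score class. In the lowest-scoring 25%, X had 11.7 peaks per Mb and the 3 autosomal arms together 16.9, a ratio of 0.691. In the next 2 classes of 25% the ratios were 0.564 and 0.597. In the highest-scoring 25% it was 0.856, with 13.9 peaks per Mb on X and 16.2 on the autosomal arms. In the highest 10% it was 1.12, with 6.87 against 6.11 peaks per Mb. In the highest 1%, with 10 X peaks, it was 0.729. The highest 10% was thus the class in which X exceeded the 3 arms together. Chromosome arm 2L, the sparsest of the 3, had 11.8 peaks per Mb in the highest 25%, fewer than X.

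**Figure D1:**
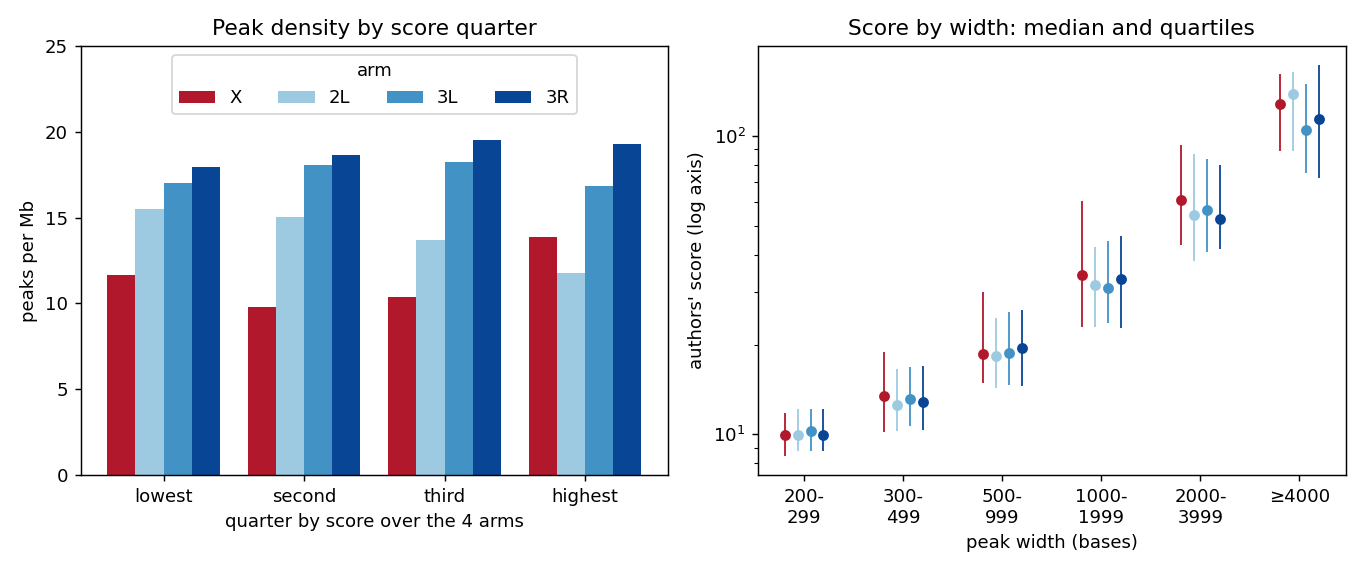
Left, peaks per Mb in each 25% of the score range set over the 4 arms, as bars per arm. Right, the authors' score on a log axis by peak width, with points for medians and lines for quartiles. X is the lowest bar in the lower 3 classes and lies above 2L in the highest, where it has 13.9 peaks per Mb, and its median scores run close to those of the other arms at each width.

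Wide peaks scored higher on every arm. Across the 944 X peaks, Spearman's rho of score with width was 0.79, and it was 0.81, 0.81 and 0.83 on 2L, 3L and 3R. These are descriptions of peaks that share libraries and a caller. At a given width the X scores were close to the others. Among peaks of 500 to under 1000 bases the median score was 18.6 on X, 18.3 on 2L, 18.7 on 3L and 19.5 on 3R. From 1000 to under 2000 bases the medians were 34.1 on X and 31.0 to 33.2 elsewhere. The upper quartile in that class was 60.5 on X, while it was 42.4 on 2L, 44.5 on 3L and 46.1 on 3R. X peaks of middle width therefore had a longer upper tail of scores. The 142 X peaks of the highest 10% had a median width of 2616 bases, and 27 of them, or 19.0%, were narrower than 1000 bases. On 2L, 3L and 3R the medians were 3204, 3152 and 2627.5 bases. The narrow share there was 17.2%, 22.1% and 19.8%, so X lay between the other arms in this.

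The 5 highest-scoring X peaks were wide but not the widest, with 2259 to 4676 bases and places 41 to 133 by width among the 944. The highest, from 6229202 to 6232577, had 3376 bases and scored 243. The next, from 7925516 to 7928502, had 2987 bases, scored 237 and stood beside 1 close neighbour. The third, from 6456856 to 6459114, had 2259 bases, scored 230 and had no neighbour within 2000 bases. These first 3 all lay in a sparse part of the arm, from 4064471 to 9360009. The fourth and the fifth lay in dense groups, at 2200400 to 2205048 with a score of 227.8 and at 10425013 to 10429688 with a score of 227.7. The first peak of the arm, nearest the telomere, lay at 57201 to 58096 and scored 104, at percentile 93.9.

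Along the arm the peak bases were concentrated in a few places. The densest 10% of the 100-kb blocks of X, 21 of 207, held 50.03% of the X peak bases. On 2L, 3L and 3R the densest 10% held 38.2%, 39.7% and 32.9%. No X peak base was found in 63 blocks, or 30.4% (24.2 to 37.2), while the share of empty blocks was 23.3% on 2L, 15.3% on 3L and 14.4% on 3R. The fullest X block was covered to 54.6%. Dense blocks lay side by side: Pearson's r between the coverage of adjacent X blocks was 0.39, at a distance of 3 blocks 0.24 and at 5 blocks 0.07. The same r for adjacent blocks was 0.22 on 2L, 0.38 on 3L and 0.13 on 3R.

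The 1-Mb windows of X ran from 0.462% to 19.1% of bases covered, with a median of 3.41% over 21 windows. The highest lay from 3057201 to 4057200 with 136 peaks, and the lowest from 8057201 to 9057200 with 4 peaks. The range was 1.56% to 15.5% on 2L, 1.86% to 23.8% on 3L and 2.36% to 14.7% on 3R, so it was wider on 3L than on X. The window with most X peaks was another, from 1057201 to 2057200. It held 159 peaks, but their median percentile was 40.8, and the 136 peaks of the highest window had a median of 59.7. Number and strength of peaks therefore did not go together between these windows.

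Peaks were most numerous in the telomere-side part of X, although not at its very end. The first 1-Mb window, from 57201 to 1057200, held 33 peaks and was covered to 5.43%, and the next 3 held 159, 91 and 136. On 2L and 3L the first window was covered to 15.5% and 23.8%. The telomere-side 25% of the X span carried 438 peaks, or 46.4%, and was covered to 10.2%. The following parts of the same length carried 207, 171 and 128 peaks and were covered to 4.73%, 3.66% and 2.95%. Width and score did not follow this order, with median percentiles of 51.9, 54.1, 54.5 and 50.2. The telomere-side 25% was also the richest in peak bases on 2L, at 8.25%, on 3L, at 13.9%, and on 3R, at 10.6%. The centromere-side 25% was the poorest on X and on 3R, where it was covered to 6.23%, but not on 2L, at 4.85%, or on 3L, at 7.81%.

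**Figure D2:**
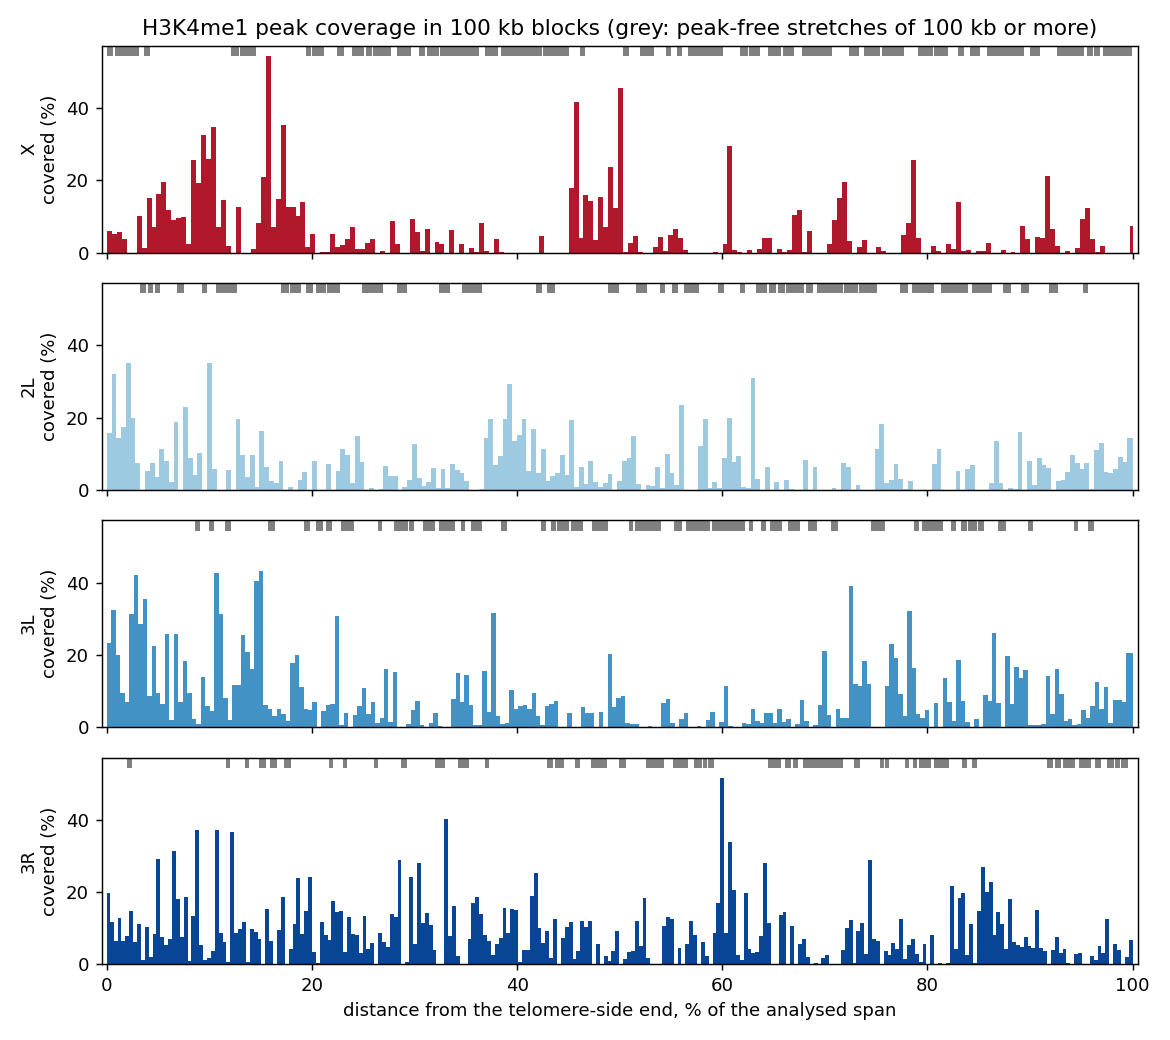
Share of bases inside peaks in 100-kb blocks of X, 2L, 3L and 3R, plotted by distance from the telomere-side end as a percent of the span; grey bars mark peak-free stretches of 100 kb or more. On X the blocks with high coverage, up to 54.6%, stand in a few groups between grey bars, and 63 of 207 blocks are empty.

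A peak-free stretch of 100 kb or more between neighbouring peaks is called a desert here. X had 57 deserts with a summed length of 12.5 Mb, or 60.7% of its span. There were 48 deserts on 2L, 54 on 3L and 54 on 3R, with 43.4%, 40.0% and 34.7% of the span. Per length there were 2.76 deserts per Mb on X, 2.23 on 2L, 2.35 on 3L and 2.05 on 3R. The median desert measured 177224 bases on X, and 161320, 136602 and 162150 bases on 2L, 3L and 3R. X deserts were thus both more frequent per Mb and longer at the median. Of those of 200 kb or more, X had 21 and the others 17, 13 and 10. Of those of 400 kb or more, X had 6, 2L had 2, and 3L and 3R had 0. All 4 deserts of 500 kb or more among these arms were on X.

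The longest X desert measured 813491 bases, from 8002833 to 8816323, and the fourth longest followed it at 8850325 to 9360009 with 509685 bases. A group of 4 peaks within 34001 bases lay between them, and its highest score was 108. The next after the longest was the desert from 20121151 to 20707807, with 586657 bases, close to the centromere-side limit. The third ran from 11753962 to 12277785 and measured 523824 bases. The fifth, from 15660461 to 16116866, had 456406 bases. For comparison, the longest desert was 450158 bases on 2L, 357148 on 3L and 368766 on 3R.

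A sparse part of X, chosen after the values were seen, lay between dense groups of peaks, from 4064471 to 9360009. It measured 5.30 Mb, or 25.6% of the X span, and 18 deserts took 79.4% of it. It held 84 peaks, or 15.9 per Mb, and peaks covered 1.89% of it. Of the 84 peaks, 32, or 38.1%, were in the highest-scoring 25% of the 4 arms, against 30.4% of all X peaks. Among the 32 were the 3 highest-scoring peaks of X. The median width of the 84 peaks, 643 bases, was close to the 642 bases of the whole X list.

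**Figure D3:**
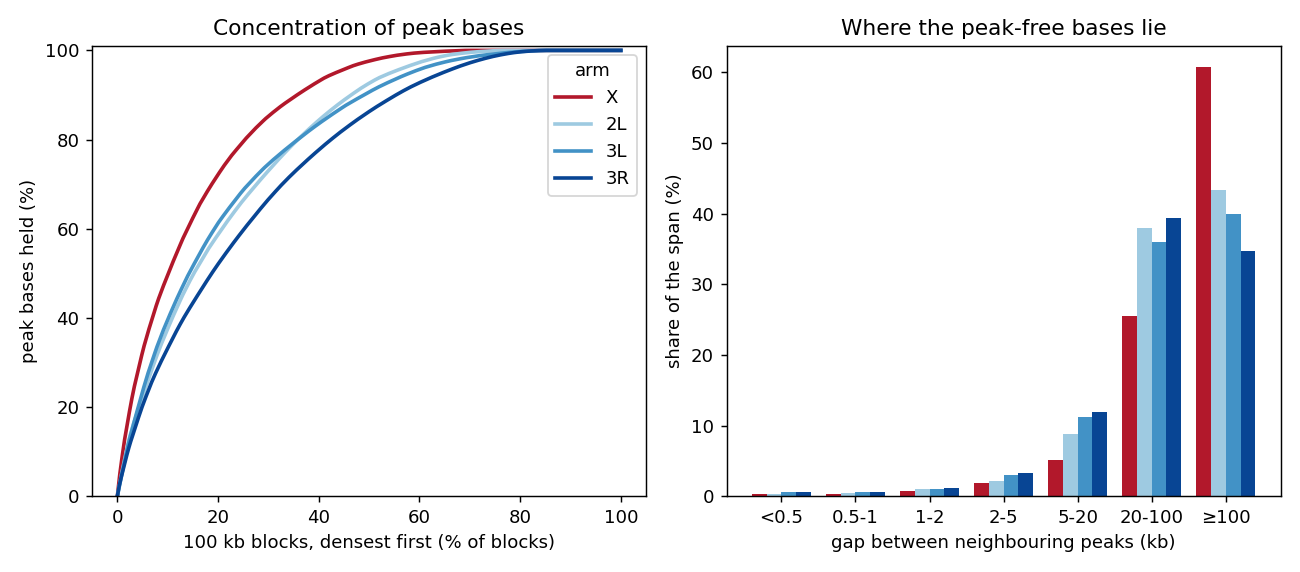
Left, share of peak bases held by the densest 100-kb blocks of each arm, in order of coverage. Right, share of each arm's span that lies in gaps of a given length between neighbouring peaks. The X curve lies above the others, with 50.03% of peak bases in the densest 10% of blocks, and 60.7% of its span lies in gaps of 100 kb or more.

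Outside its deserts, X was as densely filled as 3L and 3R. There X had 116.3 peaks per Mb, 2L 98.8, 3L 116.9 and 3R 115.5. Coverage outside deserts was 13.7% on X, 10.4% on 2L, 12.9% on 3L and 12.7% on 3R. The likeness depended on the length that defines a desert. With 50 kb in place of 100 kb the density outside was 192 per Mb on X and 161 to 181 on the others. With 200 kb it was 71.6 on X and 72.7 to 84.5 on the others.

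The deserts divided the X peaks into 58 islands, and 3 of these held 497 peaks, or 52.6%, on 16.5% of the span. The 3 largest islands of 2L, 3L and 3R held 28.6%, 34.2% and 30.7% of the peaks. With deserts of 200 kb, X no longer stood above all 3 arms, at 61.1% against 56.1%, 69.4% and 74.4%. The largest X island ran from 922510 to 2548534 and held 259 peaks, which covered 16.2% of it. The next ran from 3054800 to 4064470 with 139 peaks and 19.1% covered, and the third from 9692602 to 10461956 with 99 peaks and 18.0% covered. A smaller island of 54 peaks, from 9360010 to 9589189, was the only other one with 50 peaks or more and was covered to 27.8%.

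At the other end, 27 of the 58 X islands held 4 peaks or fewer, and 11 of these were single peaks with a desert on both sides. The median X island had 5 peaks, while the medians were 11 on 2L, 13 on 3L and 15 on 3R. The single peaks on X were of very different kinds. They ran from 258 to 5101 bases in width and from 10.3 to 173 in score. The widest of them lay at 4178588 to 4183688 with a score of 162, and the highest-scoring at 19927335 to 19930971 with 3637 bases. Of the 11, 3 were in the lowest-scoring 25% of the 4 arms, a class that held 25.5% of all X peaks. The median percentile of the 11 was 82.5, against 52.7 for all X peaks. On 2L, 3L and 3R, with 5, 3 and 5 such single peaks, it was 95.7, 14.7 and 27.9.

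**Figure D4:**
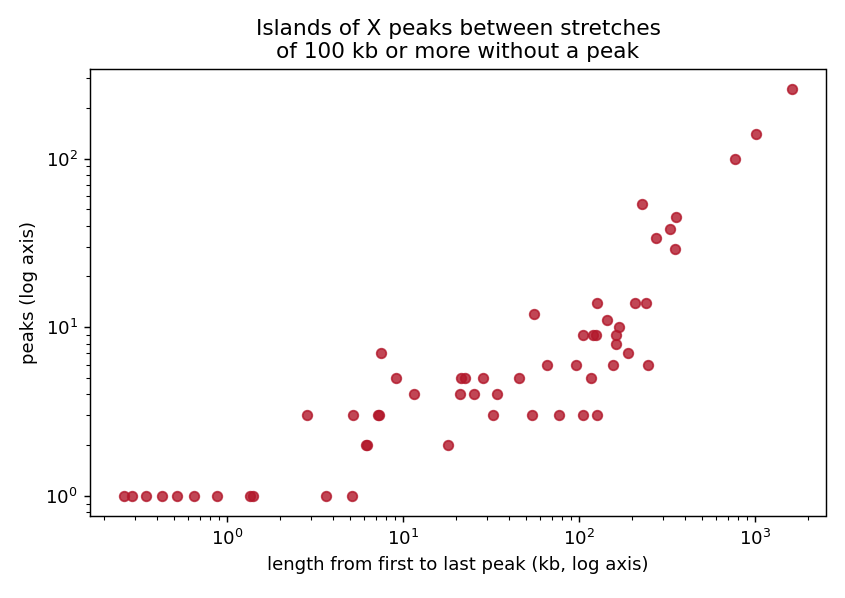
Number of peaks against length from first to last peak, both on log axes, for the 58 islands of X peaks that lie between deserts of 100 kb or more. The 3 largest hold 259, 139 and 99 peaks, and 11 islands are single peaks.

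Peaks in small X islands ranked higher by score than those in large ones. Of the 60 peaks in islands of 4 or fewer, 30 were in the highest-scoring 25%. The share was 33.0% of 333 peaks in islands of 5 to 49, and 26.7% of 551 peaks in islands of 50 or more. The smallest islands also had the highest share on 2L, with 38.9% of 36 peaks against 20.3% and 20.7% in the larger ones. On 3R they had 48.3% of 29 peaks, against 25.8% in islands of 5 to 49. On 3L the shares were 24.1% of 29 peaks, 21.8% and 25.1%, so the order differed there. Peak width on X did not follow score here, with medians of 651, 591 and 660 bases.

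The peaks that border an X desert ranked high too, but they overlap with the peaks of small islands. Every single-peak island is a border peak, and the other islands have border peaks at their ends, except at the ends of the arm. The 2 observations are therefore not separate. Of 103 bordering peaks, 51.5% were in the highest-scoring 25% and their median percentile was 76.1, against 51.3 for the other X peaks. On 2L, 3L and 3R, 30.8%, 30.5% and 32.0% of the bordering peaks were in that class. With whole arms, without peaks under 300 bases, and with deserts of 50 or 200 kb, the X share lay between 48.6% and 52.0% and above the other arms each time. Borders of both kinds occurred at the longest deserts: the longest began after a peak of 210 bases with a score of 9.66 and ended at one of 460 bases with a score of 74.8.

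On the scale of a few kilobases the X peaks were spaced like those of the other arms. The gap to the next peak was 1283 bases at the median on X, 1480 on 2L, 1213 on 3L and 1295 on 3R, and the smallest gap was 51 bases on each. Of 943 X gaps, 540 were under 2000 bases, or 57.3% (54.0 to 60.4), and the share was 55.7%, 56.6% and 57.1% on the others. The upper quartile of the gaps was lowest on X, at 6792 bases against 7618.5 to 10198 on the other arms. Further up the order reversed, with a ninetieth percentile of 55562 bases on X and of 32747 to 47242 bases on the other arms.

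Consecutive peaks with every gap under 2000 bases are called a run. X had 214 runs of 2 or more peaks and 190 peaks alone, or 20.1% of its peaks, close to the 19.5% to 20.8% on the other arms. Runs of 5 or more numbered 44 and held 323 X peaks, or 34.2% (31.2 to 37.3), while such runs held 29.3%, 29.7% and 32.3% of the peaks on 2L, 3L and 3R. X stood above all 3 arms here under 3 of 6 other settings and between them under the other 3, so its place was not stable. Per length of arm, runs of 5 or more were sparser on X, with 2.13 per Mb against 2.46, 2.96 and 3.64 on 2L, 3L and 3R. Runs of 10 or more peaks numbered 9 on X and held 107 peaks, or 11.3%, while 2L had 4, 3L 8 and 3R 8 of them.

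The 3 X runs with most peaks lay in islands of 50 peaks or more. The first, from 3318175 to 3344672, held 15 peaks that filled 67.0% of 26498 bases. Their widths ran from 202 to 5476 bases and their scores from 8.91 to 106, so wide high-scoring peaks and narrow low-scoring ones stood side by side in it. The second, from 9488461 to 9514679, also held 15 peaks and was filled to 65.3%, with scores from 10.1 to 68.1. The third, from 9745375 to 9763014, held 13 peaks with scores from 8.55 to 67.5. Each of the 3 contained a peak of at least 2975 bases. None contained a peak of the highest 1%, but that class held only 1.06% of all X peaks. The run next in number, with 12 peaks from 2177695 to 2205048, did contain one, at percentile 99.6.

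Runs of 5 or more had a median fill of 69.8% on X, with quartiles of 61.3% and 75.9%, and 66.6% to 70.8% on the other arms. They took 2.48% of the X span and held 32.2% of the X peak bases. On 2L, 3L and 3R they took 2.44%, 3.49% and 4.08% of the span and held 28.3%, 32.6% and 35.5% of the bases. The highest-scoring peak stood at an end of the run in 13 of 44 X runs, or 29.5%. End places made up 30.3% of the places in such a run on average, so the strongest peak lay at an end about as often as the share of end places. On 2L, 3L and 3R it stood at an end in 37.7%, 35.3% and 37.5% of the runs. End places there made up 31.8%, 31.2% and 31.9%.

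Solitary X peaks had the lowest median rank of the run classes, but not the lowest share of high-scoring peaks. The 190 peaks alone had a median width of 516 bases and a median percentile of 45.7. The 107 peaks in runs of 10 or more had a median of 593 bases and a percentile of 58.0. In the highest-scoring 25% were 29.5% of the solitary peaks and 30.8% of those in the longest runs, so that class was nearly as frequent in both. It made up 37.6% of the 210 X peaks that stood in pairs, 23.5% of the 221 in runs of 3 to 4 and 31.0% of the 216 in runs of 5 to 9, with no steady order by run length. Neighbours under 2000 bases apart had similar scores to a limited degree, with a Spearman's rho of 0.25 over 540 X pairs and of 0.20 to 0.28 on the other arms. For neighbours 2000 bases or more apart, rho was 0.13 over 403 X pairs, and 0.010, 0.081 and 0.006 on 2L, 3L and 3R.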

How the data were processed

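The labels list 2 H3K4me1 ChIP and 2 input libraries, and 1 peak list serves the whole series. Per the file headers, positions refer to FlyBase release 5, and MACS is named as the source of each peak. The submitters' processing notes name CASAVA (1.7.0.2 and 1.7.0.3), BWA, MACS2 and BDGP5 without roles. The authors deposited a start, an end and a score per peak; the scale of the score, the threshold, the pooling of replicates and the treatment of reads with several matches were each looked for, and were not given in the sources used here. Starts were read as 0-based because the lowest is 0; printed positions are 1-based. Width is end minus start.

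The centromere side was taken as the last peak end on 2L and 3L and as base 1 on 3R. Spans run from the first to the last peak kept, and blocks were tiled from the first peak. The members and measures were chosen with earlier results of these data known. Regions named by position are the 5 highest-scoring and the 5 widest peaks, the 3 runs with most peaks, the 5 longest deserts, the highest and lowest 1-Mb windows, the first peak and the peaks at the limit; further ones, such as the largest islands, were chosen after their values were seen. As a check of the code only, runs, deserts and coverage were recovered in 20 of 20 simulated lists built with the same cutoffs. The work used Python 3.11.15 with pandas 2.3.3, numpy 2.4.6, matplotlib 3.10.9 and scipy 1.17.1. Genes and sequence under the peaks were not analysed here, since no annotation or genome of release 5 was used.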

Additional observations from a re-analysis of the deposited data

How the results depend on the processing

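Each of 11 measures of X was repeated under other settings, 50 times in all. Of these values, 24 stayed within a range set around the value reported, and the other 26 moved. For counts and densities the range was 1.5 times either way. It came from ranked values for medians, from Fisher's z for rho and from a binomial interval for shares of peaks or neighbours. For shares of bases the binomial interval took the 207 blocks as trials, which made it wide, at 2.68% to 9.31% for coverage. The split is thus a rough scale and not a test. With peaks at or above the median score (390 on X) there were 18.9 peaks per Mb, a median width of 1559 bases, 36.0% close neighbours, 9.49% of peaks in runs of 5 or more, 73.0% of the span in deserts and a rho of 0.45. With the highest-scoring 25% there were 9.15 peaks per Mb covering 2.61%. Without peaks under 300 bases the median width was 845 bases, 50.2% of neighbours were close, 22.9% of peaks lay in runs and rho was 0.71. With peaks under 500 bases apart joined there were 29.2 per Mb, 1085 bases wide at the median, 34.2% in the highest-scoring 25%, 33.1% close and 9.62% in runs. Gaps of 1000 and 5000 bases gave 46.9% and 71.2% close neighbours, and 16.6% and 58.1% of peaks in runs. Deserts of 50 and 200 kb took 76.2% and 36.2% of the span and numbered 102 and 21. Blocks of 200 kb gave 41.2% of peak bases in the densest 10%.

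X kept its place above or below all 3 autosomal arms in 39 of the 50 repeats. The 11 exceptions were 3 each for close neighbours, runs and the number of deserts, and density and coverage among the highest-scoring 25%. In 3 of them X turned from above to below all 3 arms: the number of deserts with peaks at or above the median score (55 against 62 to 72) and with 50 kb (102 against 114 to 131), and close neighbours with peaks joined (33.1% against 33.5% to 34.4%). In the others X lay between the arms. A place kept could still hide a small difference. With peaks at or above the median score, X and 2L had 18.9 and 19.2 peaks per Mb and coverage of 4.02% and 4.17%. Deserts then took 73.0% of X and 71.2% of 2L. On 3L and 3R there were 26.4 and 28.7 such peaks per Mb, and deserts took 61.6% and 54.8%. Alternatives for desert borders, islands and density outside deserts were chosen after seeing the data. No paired analysis was possible because no single library has values in the list, so leaving out a replicate could not be done either. Whether deserts lack the mark or lack reads was not tested.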
